A study of Mus musculus with 12 samples.

Results

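Hypoxia-response genes are described here in B cells of Peyer's patches (PP) across 12 mice, of which 6 were sham controls and 6 stroke mice. The set has 10 genes of the 36175 genes in the deposited table, and each was found there by its symbol. They are the transcription factor subunit Hif1a, the oxygen sensors Egln1 and Egln3, and the targets Ankrd37, Higd1a, Bnip3, Bnip3l, Vegfa, Pdk1 and P4ha1. The set was chosen by its values in the same contrast of stroke mice against sham controls, with Ankrd37 and Higd1a chosen because they were lower in stroke mice. Their levels in the groups are therefore given as a description, and their p-values from the fit across all genes are not used as evidence.

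The data are bulk RNA-seq of PP B cells, with a separate library for each mouse, in male C57BL/6JHsd wild-type mice 10 to 12 weeks old. Stroke mice had a transient middle cerebral artery occlusion of 1 h with a filament, and in sham controls the filament was inserted and removed at once. B cells were purified 18 h after surgery with a magnetic kit for untouched B cells and then with CD45 beads. Per the methods, the kit left small amounts of epithelial and endothelial cells before the CD45 step, and B cells of very high purity after it. Both groups received buprenorphine before and carprofen after surgery, and unoperated mice were not analysed here.

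Hypoxia-inducible factors (HIF) pair an oxygen-labile alpha subunit such as HIF-1 alpha with a stable partner encoded by Arnt. With oxygen present, the prolyl hydroxylases encoded by Egln1, Egln2 and Egln3 mark the alpha subunit for degradation through the von Hippel-Lindau protein. When oxygen is low the subunit persists and the dimer binds the core sequences ACGTG or GCGTG near genes of glycolysis, mitochondrial turnover and vessel growth. This control acts largely on the protein, so the mRNA level of Hif1a does not by itself report the activity of the factor.

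Promoter windows from RefSeq on GRCm38.p6 are shown for 4 of the genes, Ankrd37 and Higd1a because they were lower in stroke mice, Pdk1 because it lay on the other side, and Bnip3 because its window held the most core matches. Each window runs 5′ to 3′ on the strand of the gene from 250 bases before the annotated start to 50 after it. Capitals mark every match to ACGTG or GCGTG on either strand, so that CACGT and CACGC are matches on the other strand. The windows are chr8:45999801-46000100 (minus strand) for Ankrd37, chr9:121857747-121858046 (minus strand) for Higd1a, chr2:71872974-71873273 (plus strand) for Pdk1 and chr7:138909457-138909756 (minus strand) for Bnip3.
Ankrd37: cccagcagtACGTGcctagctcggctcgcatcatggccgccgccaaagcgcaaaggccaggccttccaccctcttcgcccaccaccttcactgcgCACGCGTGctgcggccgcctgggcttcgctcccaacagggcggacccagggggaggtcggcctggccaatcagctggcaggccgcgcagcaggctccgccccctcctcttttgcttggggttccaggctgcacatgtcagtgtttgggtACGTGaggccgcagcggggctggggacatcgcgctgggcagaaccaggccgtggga
Higd1a: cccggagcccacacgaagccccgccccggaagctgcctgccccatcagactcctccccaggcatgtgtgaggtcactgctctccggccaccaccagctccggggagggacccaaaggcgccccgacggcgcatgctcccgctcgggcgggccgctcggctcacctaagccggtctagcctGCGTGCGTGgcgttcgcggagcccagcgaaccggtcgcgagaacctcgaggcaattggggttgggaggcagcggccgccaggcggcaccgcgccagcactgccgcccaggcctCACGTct
Pdk1: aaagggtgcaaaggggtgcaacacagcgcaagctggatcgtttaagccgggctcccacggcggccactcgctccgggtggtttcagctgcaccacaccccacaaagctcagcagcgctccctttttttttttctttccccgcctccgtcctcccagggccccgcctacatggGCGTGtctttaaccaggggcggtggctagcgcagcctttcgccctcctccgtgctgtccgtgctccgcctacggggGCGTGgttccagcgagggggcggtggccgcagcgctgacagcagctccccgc
Bnip3: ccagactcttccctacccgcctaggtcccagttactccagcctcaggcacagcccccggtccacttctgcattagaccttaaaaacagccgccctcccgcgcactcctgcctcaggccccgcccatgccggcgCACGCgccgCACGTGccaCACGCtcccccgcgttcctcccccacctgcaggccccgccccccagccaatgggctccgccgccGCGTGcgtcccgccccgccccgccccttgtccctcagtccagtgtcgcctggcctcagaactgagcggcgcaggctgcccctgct

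The Ankrd37 window held 4 matches, 2 to ACGTG at positions -241 and -6 from the start and 2 to GCGTG that overlap each other at -155 and -152. In Higd1a, 2 overlapping GCGTG matches lay at -70 and -66, and 1 ACGTG match on the other strand lay at 44 bases after the start. Bnip3 had 5 matches, of which 2 are the same 6 bases read on both strands. Pdk1 had 2 GCGTG matches, at -78 and -2, in the window shown and 0 in its other window.

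RefSeq windows were found for 9 of the 10 genes, and Bnip3l had no entry. Hif1a and P4ha1 held 3 matches each, Egln1 2 and Egln3 1, and Vegfa held 2 in a window and 0 in the other. Of all 32851 mouse promoter windows of this length, 43.8% held at least 1 match, 20.6% at least 2, 8.93% at least 3, 3.86% at least 4 and 1.66% at least 5. The window shown for Ankrd37 had a GC content of 69% and that of Higd1a 72.7%, against a median of 52.7% over all windows. A match describes these letters only and is not evidence of binding.

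**Figure D1:**
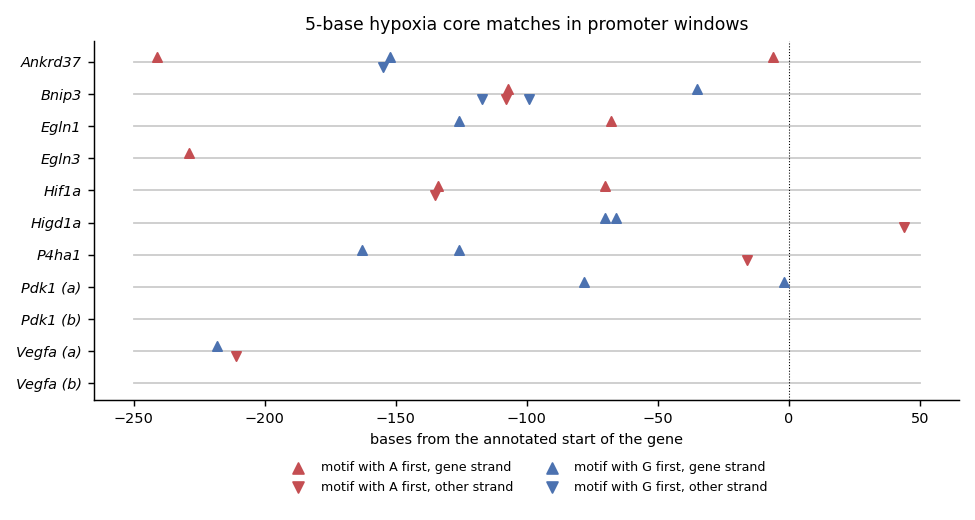
Positions of ACGTG (A first, red) and GCGTG (G first, blue) in the RefSeq promoter windows, in bases from the annotated start, with triangles pointing up for the strand of the gene and down for the other strand. Letters in brackets separate the windows of Pdk1 and of Vegfa. The 4 matches of Ankrd37 and the 5 of Bnip3 are the highest counts, and a window each of Pdk1 and Vegfa held 0.

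The deposited values are normalized TPM, a measure of abundance per transcript length whose total ranged from 559570 in sham control 6 to 1404340 in sham control 1. Differences are on the scale log2(value + 0.5), stroke minus sham, which understates changes of genes with low values, and only genes that reached 1 in all mice were tested. Of 12590 genes tested with limma, 770 had an unadjusted p under 0.05 (6.12%), 557 of them higher (4.42%) and 213 lower (1.69%) in stroke mice, and 0 had an adjusted p under 0.05. A gene is named called below where its unadjusted limma p was under 0.05. Lower genes were 27.7% of the 770, 17.5% of those found with equal totals, 44% with median-of-ratios scaling and 38.2% with quantile normalization, and they were 55.4% of those found without sham control 6, where 936 were higher and 1162 lower. The median difference of all genes was 0.01, and equal totals moved it to 0.12. The B cell genes fixed as markers, among them Cd79a and Pax5, were present in every mouse, with a sum of 3913 to 5779 in sham controls and 2747 to 5343 in stroke mice. Of these 10 marker genes 7 had negative differences, and 1 was called, the complement receptor gene Cr2, at 258.1 ± 31.9 in sham controls and 158.4 ± 56.9 in stroke mice (SD, n = 6 each; log2 difference -0.83, SE 0.30, limma adjusted p = 0.748). In bulk RNA, fewer cells of a type and less RNA per cell cannot be told apart.

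Ankrd37 (ENSMUSG00000050914), which encodes an ankyrin repeat protein and is a known HIF target, was at 24.3, 41.8, 39.4, 45.9, 48.7 and 30.6 in sham controls 1 to 6. It was at 18.6, 24.9, 21.1, 23.0, 11.2 and 15.5 in stroke mice 1 to 6. The groups overlapped only in that stroke mouse 2 lay just above sham control 1, and the other 5 stroke mice were below all sham controls. The means of sham controls and stroke mice were 38.4 ± 9.32 and 19.1 ± 5.05 (SD, n = 6 each), a log2 difference of -1.0 (SE 0.21). The difference stayed between -1.12 and -0.86 when each mouse was left out in turn. With equal totals it was -0.88, and 1 of the 6 stroke mice was then below all sham controls.

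Higd1a (ENSMUSG00000038412), which encodes a small protein of the inner mitochondrial membrane that associates with the respiratory chain, was at 20.4, 20.5, 22.1, 14.9, 20.6 and 13.9 in sham controls 1 to 6. Stroke mice 1 to 6 were at 12.7, 11.6, 11.1, 11.2, 10.8 and 12.5. All stroke mice lay below all sham controls, which also held with equal totals, median-of-ratios scaling and quantile normalization. The mean was 18.7 ± 3.45 in sham controls and 11.6 ± 0.785 in stroke mice (SD, n = 6 each), a log2 difference of -0.64 (SE 0.13). Leaving out each mouse gave -0.72 to -0.59, and equal totals gave -0.52. The stroke mice were also closely spaced, with a coefficient of variation of 6.74% against 18.4% in sham controls.

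Of the 8 hypoxia-response genes that passed the filter on low values, 2, Ankrd37 and Higd1a, were among the 1.69% of all genes counted as lower, and 0 were among those counted as higher. Higd1a was also among the 11 of 12590 genes (0.0874%) with lower, separate ranges in stroke mice. Because this contrast chose the genes, nothing is read from either count. A further gene was counted in 3 alternatives. Hif1a was counted as lower with array weights, where 703 of 12590 genes were, and without sham control 6, where 1162 of 12661 genes were. Pdk1 was counted as higher without sham control 4, where 469 of 12648 genes were.

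**Figure D2:**
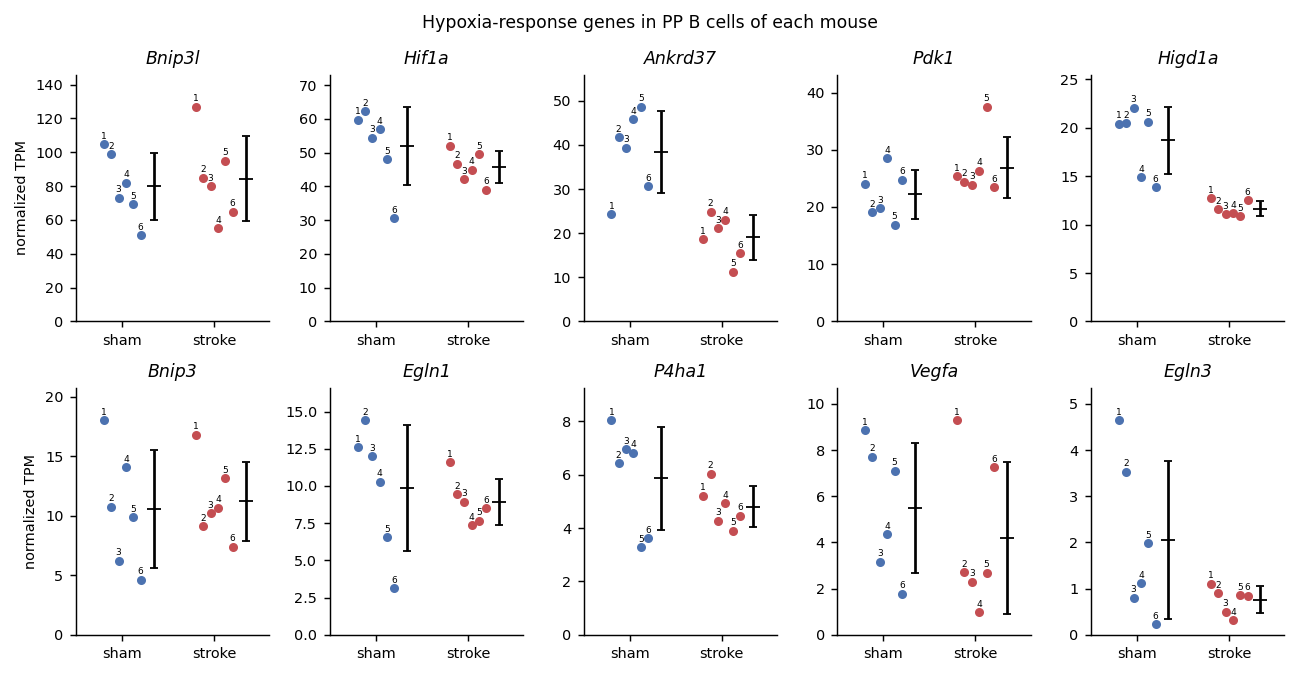
Normalized TPM of each of the 10 genes in sham controls (blue) and stroke mice (red), from 0 on each axis. Each point is 1 mouse with its label number, and the bar is the mean ± SD of 6 mice. The 6 stroke mice of Higd1a sit between 10.8 and 12.7, below all sham controls, and those of Ankrd37 between 11.2 and 24.9.

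Pdk1, which encodes a kinase that inhibits pyruvate dehydrogenase and so limits the entry of pyruvate into mitochondria, was on the other side. It ranged from 16.9 to 28.5 with a median of 21.9 in sham controls and from 23.4 to 37.5 with a median of 24.9 in stroke mice. All 6 stroke mice were above the sham mean of 22.2 ± 4.34 (SD, n = 6), but the ranges overlapped, and stroke mouse 5 alone reached 37.5. The stroke mean was 26.8 ± 5.34 (SD, n = 6), with a log2 difference of 0.27 (SE 0.15) that ranged from 0.17 without stroke mouse 5 to 0.35 without sham control 4.

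Hif1a, which encodes the oxygen-labile subunit, was at 30.6 to 62.3 (median 55.7) in sham controls and 39.1 to 52.1 (median 45.8) in stroke mice, with a log2 difference of -0.15 (SE 0.16). Egln1, which encodes the main prolyl hydroxylase PHD2, was at 3.13 to 14.4 (median 11.1) in sham controls and 7.37 to 11.6 (median 8.71) in stroke mice, with a log2 difference of -0.01 (SE 0.29). For both genes the stroke range lay inside the sham range. Sham control 6 set the lower end of both, and without it the differences were -0.30 for Hif1a and -0.28 for Egln1. With equal totals Hif1a was at -0.03, and Egln1 took the opposite sign, at 0.12.

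Egln3, which encodes the hydroxylase PHD3 and is itself a HIF target, was the least abundant of the genes and did not pass the filter. It was at 4.65, 3.53, 0.80, 1.12, 1.99 and 0.23 in sham controls 1 to 6 and at 1.11, 0.90, 0.50, 0.31, 0.85 and 0.85 in stroke mice 1 to 6. Sham controls 1 and 2 were the highest of all mice and sham control 6 the lowest, so that the stroke range lay inside the sham range. The log2 difference fitted without the filter was -0.76 (SE 0.43), and it went from -0.50 without sham control 1 to -1.06 without sham control 6.

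Vegfa, which encodes the main growth factor of blood vessels, ranged from 1.77 to 8.87 (median 5.74) in sham controls and from 0.97 to 9.30 (median 2.69) in stroke mice. It failed the filter in stroke mouse 4. The stroke mice split into mice 1 and 6, at 9.30 and 7.26, and the other 4, at 0.97 to 2.70. The log2 difference of -0.48 (SE 0.50) was smaller than its standard error, and it went from -0.75 without stroke mouse 1 to -0.21 without stroke mouse 4, with -1.14 under array weights.

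Bnip3 and Bnip3l encode mitophagy receptors of the outer mitochondrial membrane. Bnip3l was at 51.0 to 104.9 (median 77.6) in sham controls and 55.2 to 126.9 (median 82.4) in stroke mice, with a log2 difference of 0.07 (SE 0.22). Bnip3 was at 4.64 to 18.1 (median 10.3) in sham controls and 7.39 to 16.8 (median 10.4) in stroke mice, with a log2 difference of 0.16 (SE 0.29). Both signs turned when single mice were left out, to -0.06 for Bnip3l without stroke mouse 1 and to -0.03 for Bnip3 without sham control 6. With equal totals the differences were 0.19 for Bnip3l and 0.29 for Bnip3. The ratio of Bnip3l to Bnip3 within a mouse lay between 5.17 and 11.7.

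P4ha1 encodes a catalytic subunit of the prolyl hydroxylase that modifies collagen. It was at 3.28 to 8.05 (median 6.62) in sham controls and 3.90 to 6.03 (median 4.70) in stroke mice, with a log2 difference of -0.21 (SE 0.21). The stroke range again lay inside the sham range, and the difference was -0.09 with equal totals, -0.35 without sham control 5 and -0.11 without sham control 1.

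**Figure D3:**
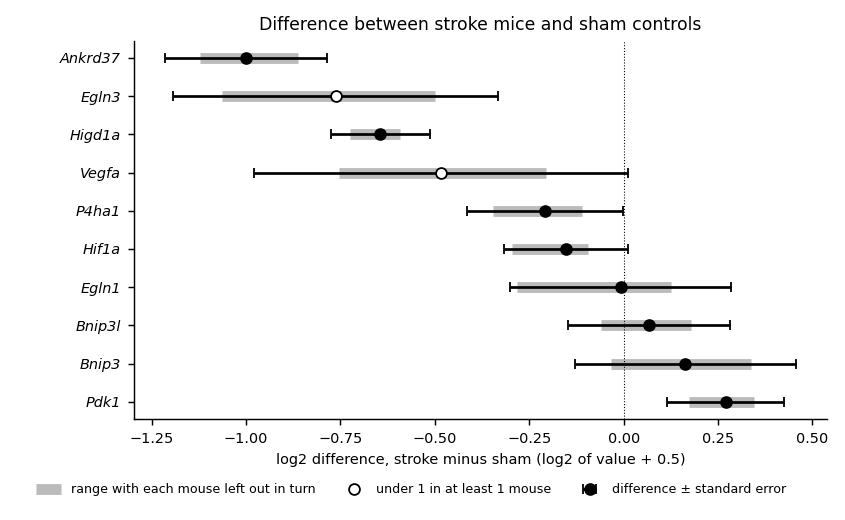
Log2 difference between 6 stroke mice and 6 sham controls for each gene, on the scale log2(value + 0.5), with its standard error (black bar) and the range over 12 repeats that each leave out 1 mouse (grey). Open circles are Egln3 and Vegfa, which were below 1 in at least 1 mouse. The values run from -1.0 for Ankrd37 to 0.27 for Pdk1, and the grey ranges of Egln1, Bnip3l and Bnip3 cross 0.

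In order of mean level over the 12 mice, on the same per-length scale, Bnip3l was at 82.2, Hif1a at 48.9, Ankrd37 at 28.7, Pdk1 at 24.5, Higd1a at 15.2, Bnip3 at 10.9, Egln1 at 9.38, P4ha1 at 5.33, Vegfa at 4.85 and Egln3 at 1.40. Bnip3l was above Hif1a and Vegfa above Egln3 in 12 of 12 mice. P4ha1 and Vegfa kept their order in 7 of 12 mice and Bnip3 and Egln1 in 8, so that these neighbours were not separated beyond their spread. Ankrd37 was above Pdk1 in 6 of 6 sham controls and in 1 of 6 stroke mice, so that their order turned between the groups. Pdk1 was above Higd1a in 3 of 6 sham controls and 6 of 6 stroke mice. The other neighbours kept their order in 10 to 11 mice. Bnip3l stood at the 87.7th percentile of the levels of the genes tested and P4ha1 at the 17.7th.

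Spread within groups differed widely among the genes. The within-group SD was 0.21 on the log2 scale for Higd1a, and 80.9% of the genes tested had a larger one. Egln1 and Bnip3 were at 0.56 each, with a larger SD in 12.5% and 12.7% of the genes tested. In sham controls the highest mouse exceeded the lowest by 2.01 times for Ankrd37 and 20.3 times for Egln3, and in stroke mice by 2.21 times and 3.56 times.

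Other genes of the pathway were taken from 7 lists of 130 genes in all. Of the 106 that could be tested, 3 were higher and 1 lower in stroke mice at an unadjusted p under 0.05, which is 3.77% against 6.12% of all genes, and 0 passed after adjustment. Their median difference was -0.06, and 61 of 106 were negative, against a median of 0.01 and 48.6% negative over all genes. Without sham control 6 the count was 18 of 107, with 15 lower, where 2098 of all 12661 genes were called, 1162 of them lower.

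Egln2, which encodes the third HIF prolyl hydroxylase PHD1, was at 47.1 to 81.0 (median 71.1) in sham controls and 78.8 to 143.0 (median 101.5) in stroke mice. The ranges overlapped slightly, and the log2 difference was 0.58 (SE 0.18, limma adjusted p = 0.716). Egln2 was higher with equal totals as well (0.71), but the difference was 0.36 and was no longer called when the 3 sham controls with the highest and lowest totals were left out together. Its relatives Egln1 and Egln3 were at -0.01 and -0.76.

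The 20 tested genes among HIF subunits and regulators had a median difference of 0.04, and Egln2 alone was called (5%, against 6.12% of all genes). Arnt, the partner of HIF-1 alpha, was at a mean of 35.4 in sham controls and 38.6 in stroke mice, and Vhl at 13.6 and 15.3. Of 27 tested targets outside glycolysis, 1 was called (3.7%), Ddit4, which encodes an inhibitor of mTORC1 signalling. Ddit4 was at 6.66 to 33.0 (median 26.8) in sham controls and 23.3 to 45.8 (median 37.2) in stroke mice, a log2 difference of 0.81 (SE 0.36, limma adjusted p = 0.791), and its unadjusted call was lost in 6 of the 12 repeats that left out a mouse, with 0.52 without sham control 6.

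Genes of glucose uptake and glycolysis under HIF control had a median difference of -0.14, with 16 of 20 negative against 48.6% of all genes. Lists of epithelial, plasma cell and dissociation stress genes were also mostly negative, and their part in this was not tested. Of the 20 glycolytic genes only Slc16a3, the lactate exporter MCT4, was called (5%, against 6.12% of all genes). It was lower in stroke mice, at 2.60 to 8.06 (median 5.27) in sham controls and 1.31 to 4.77 (median 2.86) in stroke mice. Its log2 difference was -0.71 (SE 0.30, limma adjusted p = 0.791), and its call was also lost in 6 of 12 repeats.

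In the mitophagy list 1 of 20 tested genes (5%, against 6.12% of all genes) was called, Calcoco1, known as a receptor for selective autophagy of the endoplasmic reticulum, at 15.7 to 22.5 (median 18.1) in sham controls and 19.1 to 59.6 (median 25.7) in stroke mice. Its log2 difference of 0.58 (SE 0.23, limma adjusted p = 0.778) was 0.36 without stroke mouse 5. Another list held 10 genes of the pyruvate dehydrogenase complex, its phosphatases and the pyruvate carrier. Of these 0 were called and 8 were negative, against 6.12% and 48.6% of all genes, with a median of -0.09. Pdha1, which encodes the subunit that Pdk1 phosphorylates, was at a mean of 43.7 in sham controls and 43.8 in stroke mice. The smallest p belonged to Pdp2, a phosphatase that opposes Pdk1, at a log2 difference of -0.52 (SE 0.30), and to Mpc1, a subunit of the mitochondrial pyruvate carrier, at -0.20 (SE 0.14). Pdp2 was at -0.72 and called without sham control 6 and at -0.31 without stroke mouse 5, and Mpc1 was at -0.27 and called with array weights and at -0.08 with equal totals.

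Of the 9 tested relatives of the 10 genes, Egln2 alone was called (11.1%, against 6.12% of all genes). Higd2a, the closest relative of Higd1a among those tested, was at a mean of 27.7 in sham controls and 23.0 in stroke mice. Higd1b and Higd1c did not pass the filter. VEGF receptors were near the lower limit, with 2 of 5 tested and 0 called, Nrp2 at a log2 difference of -0.14 (SE 0.17; -0.26 without stroke mouse 6, -0.05 without stroke mouse 1 and -0.04 with equal totals) and Flt1 at 0.10 (SE 0.16).

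**Figure D4:**
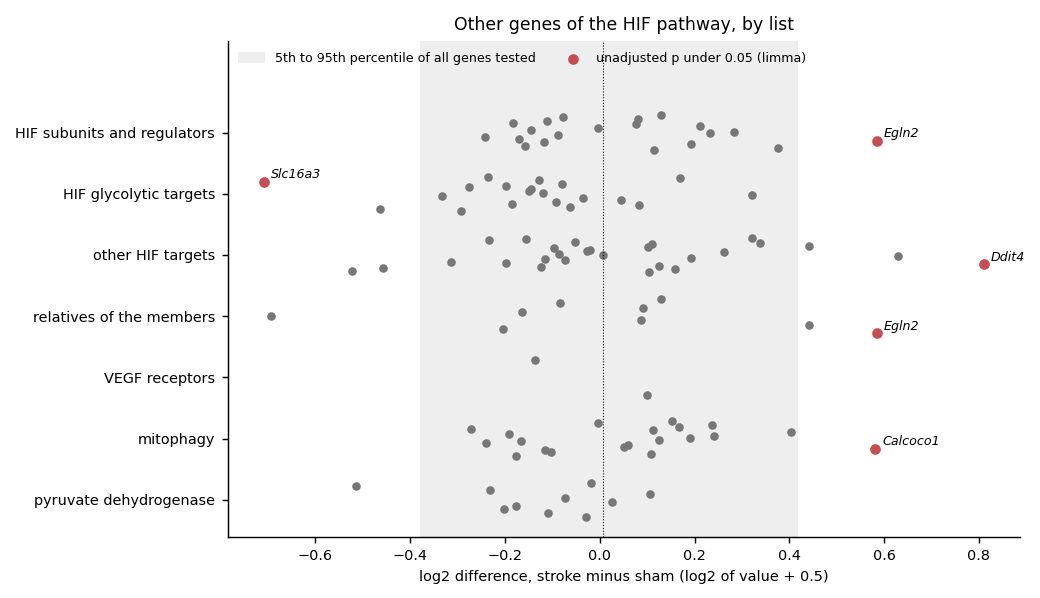
Log2 difference, stroke minus sham, of each tested gene in the 7 lists of other HIF pathway genes, with genes at an unadjusted limma p under 0.05 in red and named. The grey band spans the 5th to the 95th percentile of all genes tested, and the dotted line is their median of 0.01. Of 106 genes, 3 were called higher and 1 lower, and Egln2 appears in 2 lists.

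Markers of other cell types moved with some of the genes. The sum of 10 epithelial genes ranged from 36.1 in sham control 6 to 1723 in sham control 1 (median 423), and from 32.8 to 856 (median 175) in stroke mice, and the 5 epithelial genes tested were all negative (median log2 difference -1.64, from -1.84 to -0.84), with 0 called. After subtraction of the group means, Egln3 followed this sum over the 12 mice with a Pearson r of 0.87 (permutation p = 1e-05, the smallest that 100000 permutations can give, adjusted p = 0.0003). Spearman's rho was 0.85 (permutation p = 0.00014, adjusted p = 0.0021), and r was 0.83 without the 2 mice farthest from the median and 0.83 with equal totals. Vegfa gave r = 0.88 (permutation p = 0.00015, adjusted p = 0.001125) and rho = 0.90 (permutation p = 0.00029, adjusted p = 0.0029), with 0.81 without the 2 farthest mice and 0.79 with equal totals. These are 2 of 30 relations between the 10 genes and the epithelial, plasma cell and dissociation stress sums, computed after the data had been seen.

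Ankrd37 had an r of 0.04 with the epithelial sum (permutation p = 0.912, adjusted p = 0.912) and a rho of -0.02 (permutation p = 0.959, adjusted p = 0.959), with r = -0.13 without the 2 farthest mice and -0.41 with equal totals. Higd1a had r = 0.64 (permutation p = 0.0287, adjusted p = 0.0615) and rho = 0.57 (permutation p = 0.0410, adjusted p = 0.0947), with r = 0.41 without the 2 farthest mice, and the sign turned with equal totals (-0.41). Its r was also 0.64 with the plasma cell sum and 0.64 with the dissociation stress sum (permutation p = 0.0407 and 0.04998, adjusted p = 0.0717 and 0.0833). The corresponding rho was 0.46 and 0.55 (permutation p = 0.150 and 0.0607, adjusted p = 0.212 and 0.114), and r was 0.20 and 0.40 without the 2 farthest mice and -0.42 and 0.13 with equal totals. Among the mice with the lowest epithelial sums, sham control 6 (36.1) had Higd1a at 13.9 and Ankrd37 at 30.6. Stroke mouse 4 (32.8) had them at 11.2 and 23.0, stroke mouse 3 (44.9) at 11.1 and 21.1, and stroke mouse 5 (59.7) at 10.8 and 11.2. These values depend on the scaling, because sham control 6 had the lowest total (559570). With equal totals it had the highest values of the sham controls, 24.8 for Higd1a and 54.7 for Ankrd37. The part of epithelial RNA in the differences of Egln3, Vegfa and Higd1a was not tested, nor was that of plasma cells or dissociation.

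**Figure D5:**
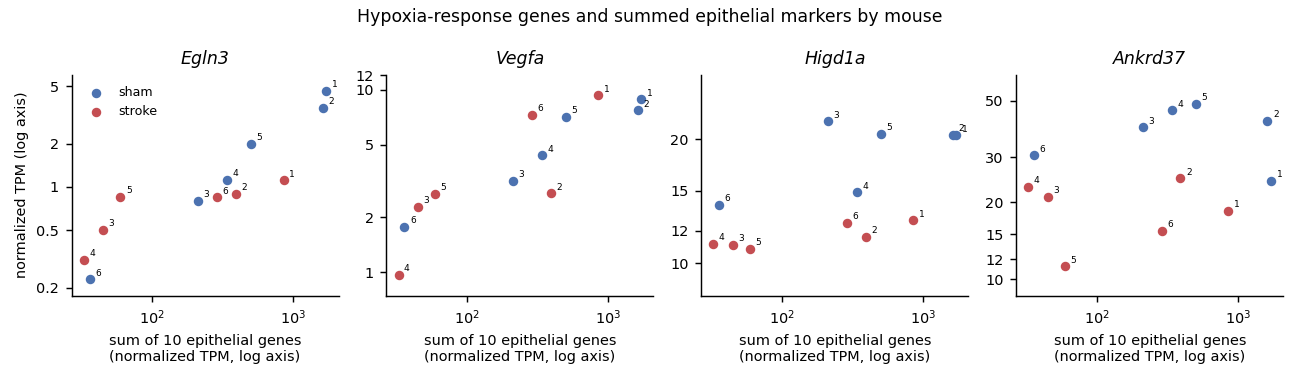
Level of Egln3, Vegfa, Higd1a and Ankrd37 (normalized TPM, log axis) against the sum of 10 epithelial genes (normalized TPM, log axis) in sham controls (blue) and stroke mice (red), with each mouse's label number. Egln3 and Vegfa rise with the epithelial sum (r = 0.87 and 0.88 after subtraction of group means), with no stroke mouse near the sums of sham controls 1 and 2, at 1723 and 1623.

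Egln1 had its highest marker relations with the plasma cell sum, at r = 0.89 (permutation p = 0.00014, adjusted p = 0.001125; rho = 0.83, permutation p = 0.00013, adjusted p = 0.0021; r = 0.81 without the 2 farthest mice), and with the dissociation stress sum, at r = 0.88 (permutation p = 7e-05, adjusted p = 0.00105; rho = 0.84, permutation p = 0.00044, adjusted p = 0.0033; r = 0.87 without the 2 farthest mice). The plasma cell sum was 294.5 to 1486 in sham controls and 371.9 to 1085 in stroke mice, and the stress sum 80.4 to 259.2 and 78.6 to 201.2. Of the 6 tested genes of each of these lists 5 were negative, with a median log2 difference of -0.26 for plasma cells and -0.44 for dissociation stress, and 0 were called. Of the 30 relations, 10 had an adjusted p under 0.05. Of these, 4 were with the epithelial sum, for Egln3, Vegfa, Egln1 (r = 0.74, permutation adjusted p = 0.0267) and Bnip3l (r = 0.76, permutation adjusted p = 0.0345). With equal totals the epithelial r was 0.48 for Egln1 and 0.16 for Bnip3l. Over the 10 relations, r with equal totals ranged from 0.15 for P4ha1 with the plasma cell sum to 0.83 for Egln3 with the epithelial sum, and 5 were under 0.5. For Egln1 it was 0.66 with the plasma cell sum and 0.74 with the stress sum. Of 8 endothelial markers, Emcn was at 0 in 10 mice and Cldn5 in 9, whereas Pecam1 had means of 93.9 and 93.3 and Vwf of 3.91 and 4.23 in sham controls and stroke mice. Of 8 neutrophil markers, S100a8 was at 0 in 6 mice and Cxcr2 had means of 3.15 and 3.74, and 0 were called of the 2 endothelial markers and 1 neutrophil marker that could be tested. Of the 8 tested markers of macrophages and dendritic cells, 6 were negative, with a median log2 difference of -0.12. Of these 8, 1 was called (12.5%, against 6.12% of all genes). This was Flt3, higher at a mean of 13.7 in stroke mice against 9.63 in sham controls (log2 difference 0.50, limma adjusted p = 0.716).

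Pairs of the 10 genes were compared over the 12 mice after subtraction of group means, which leaves only the variation among mice of a group. Of 45 pairs, 36 had r above 0, where 51.9% of all pairs of tested genes did. The median r was 0.44 against 0.03 for all pairs, and 7 of the 45 had an adjusted p under 0.05. An r as high as that of Hif1a with Egln1 was reached by 0.428% of all pairs of tested genes. For the other passing pairs this share was 3.17% to 4.45%. The highest was Hif1a with Egln1, at r = 0.91 (permutation p = 0.00367, adjusted p = 0.0275; rho = 0.81, permutation p = 0.0058, adjusted p = 0.0512; r = 0.80 without the 2 farthest mice). Egln3 and Vegfa had the smallest p, at r = 0.78 (permutation p = 9e-05, adjusted p = 0.00405; rho = 0.78, permutation p = 0.00109, adjusted p = 0.0245; r = 0.73 without the 2 farthest mice).

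These relations depended on the totals and on single mice. With equal totals 0 of 45 pairs passed, the median r was 0.16, and r of Hif1a with Egln1 was 0.19 and that of Egln3 with Vegfa 0.64. Without sham control 6, which had the lowest total, 0 pairs passed, and without stroke mouse 1 only 1 did. Ankrd37 and Higd1a, the genes lower in stroke mice, did not vary together within groups, at r = 0.06 (permutation p = 0.881, adjusted p = 0.922; rho = 0.14, permutation p = 0.657, adjusted p = 0.778; r = 0.17 without the 2 farthest mice), although r was 0.58 with equal totals.

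Among all tested genes, those most like Ankrd37 in this group-centred r over 12 mice were Rbm12b2 (0.93), Nrm (0.91), Rbm12 (0.90), Utp14a (0.90) and Map4k1 (0.88). For Higd1a they were Dpy19l1 (0.94), Dusp5 (0.91), Efl1 (0.90), BC052040 (0.90) and Flywch1 (0.89). None of these 10 was called between the groups.

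By GENCODE on GRCm38, Ankrd37 spans chr8:45996902-46005707 on the minus strand, where it overlaps Ufsp2 and Lrp2bp on the other strand. Ufsp2 was at 25.4 ± 3.73 in sham controls and 24.7 ± 6.23 in stroke mice and Lrp2bp at 2.09 ± 0.696 and 2.81 ± 1.01 (SD, n = 6 each), so that neither was lower in the way Ankrd37 was. Higd1a spans chr9:121848563-121858362 on the minus strand and overlaps the antisense gene Gm47112, which is not analysed here. The sources used here do not state whether the libraries kept strand, so reads of overlapping genes on opposite strands may not have been told apart.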

How the data were processed

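RNA-seq values of PP B cells, 6 mice per group, were taken from 1 deposited table. Per the methods, the authors used Trimmomatic 0.39 for trimming, kallisto 0.48.0 for pseudo-alignment to Ensembl release 102 (GRCm38) and sleuth 0.30.0 for their own tests. The deposited values are a normalized expression signal per gene, labelled by the authors as normalized TPM. The design assumed plain TPM, but the totals differ between mice, so the values were handled as a signal and rescaling was an alternative. The table holds no counts, the depth is therefore unknown, and counting error has no interval here.

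Log2(value + 0.5) of the 12590 genes with at least 1 in every mouse was compared between groups by limma 3.58.1 (R 4.3.3) with no block, using Benjamini-Hochberg adjustment over all genes. Tested on simulated data, 185 of 200 genes changed by 1.5 (log2) were recovered at an adjusted p under 0.05 with 19 false calls, and with no gene changed 606 had an unadjusted and 0 an adjusted p under 0.05. The genes and lists were chosen with earlier results of these data known. Named genes are the 10 genes, called genes of each pathway list or else the 2 of smallest p, the 5 most alike Ankrd37 and Higd1a, overlapping genes and markers. Arnt, Vhl, Pdha1 and Higd2a are named outside this rule for their roles, chosen after their values were seen. Relations between mice used 100000 two-sided permutations of values within groups. Alternatives were pseudocounts of 0.1 and 1, 4 other filters, 4 scalings, a replicate block, a trend, array weights and each mouse left out. Leaving out sham controls 1, 2 and 6 together was chosen after seeing the data. Promoters came from RefSeq GRCm38.p6 and positions from GENCODE M21, in which 35869 of 36175 identifiers were found. The labels name each sample by group and number, and p-values measure the spread between these mice.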

Additional observations from a re-analysis of the deposited data

Results flagged for a closer look

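In stroke mice, Pdk1 was at 37.5 in mouse 5, and its gap to the next mouse was 0.792 of the range of the group, above Dixon's 95% critical value for 6 samples. Calcoco1 was at 59.6 in the same mouse, with a gap of 0.743 of the range. These are 2 of 28 groups of 6 examined for the 10 genes and the 4 called pathway genes, and chance flags about 1 in 20 groups. Without stroke mouse 5 the log2 difference was 0.17 for Pdk1 and 0.36 for Calcoco1.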

How the results depend on the processing

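Over the alternatives run, the log2 difference lay between -1.25 and -0.86 for Ankrd37 and between -0.72 and -0.52 for Higd1a, genes chosen for this difference in the same mice. The count of all genes called, 770, was 1768 with any value above 0 allowed, 416 with equal totals, also without immunoglobulin genes, 1174 with the replicate block, 1569 with array weights and 567 to 2098 with each mouse left out. Without sham control 6, which gave the 2098, 936 were higher and 1162 lower (55.4% lower). The count with an adjusted p under 0.05 was 1 with a mean of at least 1, 1 with at least 1 in 6 mice, and 0 to 1 with each mouse left out. Of other pathway genes, 7 were called with array weights, 2 with sham controls 1, 2 and 6 left out, and 2 to 18 with each mouse left out. Pairs of genes passing numbered 0 with equal totals, with or without immunoglobulin genes, 1 with quantile normalization, 0 without sham controls 1, 2 and 6, and 0 to 10 with each mouse left out. Flt1 turned to -0.026 without stroke mouse 3. With sham controls 1, 2 and 6 left out, which leaves 3 sham controls, the unadjusted calls of Egln2 (0.36), Ddit4 (0.69), Calcoco1 (0.63) and Slc16a3 (-0.68) were lost. The call of Ddit4 was also lost with the 3 looser filters and with array weights (0.58).

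The labels do not state that same-numbered mice of the groups are pairs. The correlation of their deviations was 0.49, 0.21, 0.08, 0.14, 0.01 and 0.37 for numbers 1 to 6. The mean was 0.22 for same numbers against -0.04 for other numbers, and 2 of 6 sham controls correlated best with their own number. The mean for same numbers was above 0.1, the smallest correlation set for pairing, but the main fit used no block. The replicate block gave 1174 called genes in place of 770. Without counts, the precision of low genes such as Egln3 cannot be stated.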
